A study of Mus musculus with 6 samples.

Results

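Ddit4l and 9 other genes that regulate or carry out signalling by the kinase mTOR were followed in pancreatic islets of 30-day-old mice whose mothers had received bisphenol-A (BPA) or vehicle during pregnancy. Bisphenol-A is an industrial monomer of polycarbonate plastics that can bind estrogen receptors. The other genes were Ddit4, Sesn1, Sesn2, Sesn3, Eif4ebp1, Rptor, Mtor, Tsc1 and Tsc2, so that 10 of 18193 annotated genes were covered. All probe sets that the platform annotation assigns to one of these symbols alone were taken, 25 of the 45037 non-control probe sets on the array, among them 3 of Ddit4l. The genes were picked with results of the same arrays known, so the p-values given for the other 9 are only descriptive. Ddit4l was chosen by its signals in the 3 dose groups, so its values are given without a p-value. All offspring were wild-type male OF-1 mice, an outbred stock, taken at postnatal day 30, and their mothers were dosed between gestation days 9 and 16. The vehicle group had 2 arrays, with islet RNA of 5 pooled mice (replicate 1) and of 1 mouse (replicate 2). The BPA10 group (10 µg/kg/day) had 2 arrays, with RNA of 1 mouse (replicate 1) and of 2 pooled mice (replicate 2). The BPA100 group (100 µg/kg/day) had 2 arrays with RNA of 1 mouse each. The litter of each mouse is not given, so p-values measure only the spread between these arrays.

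The kinase mTOR, together with the scaffold protein raptor (gene Rptor), forms mTORC1, the complex that couples growth factors and nutrients to protein synthesis and cell growth. The tuberous sclerosis proteins Tsc1 and Tsc2 form a complex that turns off Rheb, the small GTPase that activates mTORC1. The stress-induced proteins encoded by Ddit4 (also called REDD1) and its paralog Ddit4l (REDD2) are inhibitors of mTORC1 signalling, and the sestrins restrain it through the amino acid sensing branch. Eif4ebp1 encodes 4E-BP1, a translation repressor that mTORC1 inactivates by phosphorylation. In beta cells of the islet this pathway is known for its part in cell size, proliferation and insulin production.

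Ddit4l lies on chromosome 3 at 137623672 to 137628332 of assembly GRCm38.p6, and Ddit4 on chromosome 10 at 59949675 to 59951770. The 250 bases before the RefSeq start of each are shown. They were picked after 1 paralog was seen to differ widely between the groups and the other little, so nothing is read from the contrast. The pentamer GGTCA, from which the response element of estrogen receptors is built, is marked. Capitals mark GGTCA on either strand (written TGACC where it lies on the other), and both sequences run 5′ to 3′ in the direction of transcription, from chr3:137623422-137623671 (plus strand) and chr10:59951771-59952020 (minus strand), as RefSeq gives them.
Ddit4l: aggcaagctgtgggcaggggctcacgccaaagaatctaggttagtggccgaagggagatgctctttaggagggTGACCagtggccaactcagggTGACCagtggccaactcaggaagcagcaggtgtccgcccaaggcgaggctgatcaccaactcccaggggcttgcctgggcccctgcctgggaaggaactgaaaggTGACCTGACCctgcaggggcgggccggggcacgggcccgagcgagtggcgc
Ddit4: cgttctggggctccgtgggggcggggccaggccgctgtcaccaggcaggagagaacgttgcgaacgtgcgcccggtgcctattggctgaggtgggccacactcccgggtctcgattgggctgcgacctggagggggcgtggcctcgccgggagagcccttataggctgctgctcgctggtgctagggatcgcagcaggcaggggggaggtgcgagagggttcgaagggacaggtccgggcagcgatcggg
The Ddit4l stretch held 4 copies of the pentamer, at -177, -156, -51 and -46 from the start, the last of them directly following the one before. The copies at -177 and -156 lie in a run of bases that is repeated in tandem, so they are not separate occurrences. The Ddit4 stretch held 0 copies. Of 32851 such windows in the RefSeq table, 35.2% had at least 1 copy and 0.259% had 4 or more, and the full palindrome, GGTCA and TGACC with 3 bases between them, was in neither stretch and in 0.0639% of windows. This motif was chosen with the sequences in view and is a description of the letters, not of a binding site. Whether it had a part in the Ddit4l values was not tested. Of the 79 other genes with 4 or more copies, 23 were tested, and 12 were higher and 11 lower in BPA100 than in vehicle islets, with a median difference of 0.01 on the log2 scale and 0 genes at least 2-fold higher, against 0.563% of all tested probe sets. For BPA100 against BPA10, 9 were higher and 14 lower and 1 was at least 2-fold higher (0.814% of all). For BPA10 against vehicle 10 were higher and 13 lower and 2 were at least 2-fold higher (1.36% of all). The pentamers ACGTG and GCGTG were also counted. ACGTG occurred 0 times before Ddit4l and 1 time before Ddit4, and GCGTG 1 time before each. At least 1 copy was in 16.6% of windows for ACGTG and 28.2% for GCGTG.

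Ddit4l signal was higher at the lower dose than in vehicle islets and highest at the higher dose. The brightest of its probe sets, 1444139_at, had signals of 81 and 70 on the vehicle arrays, 146 and 100 on the BPA10 arrays and 454 and 296 on the BPA100 arrays. Probe set 1439332_at had signals of 34 and 24 in vehicle, 70 and 42 in BPA10 and 177 and 143 in BPA100 islets. Probe set 1451751_at had signals of 27 and 36 in vehicle, 48 and 39 in BPA10 and 122 and 102 in BPA100 islets. On all 3 probe sets every BPA10 array lay above every vehicle array, and every BPA100 array above every BPA10 array. The gap between BPA100 and BPA10 was wide on each probe set, while that between BPA10 and vehicle was narrow: on 1451751_at the lower BPA10 array stood at 39 and the higher vehicle array at 36.

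**Figure D1:**
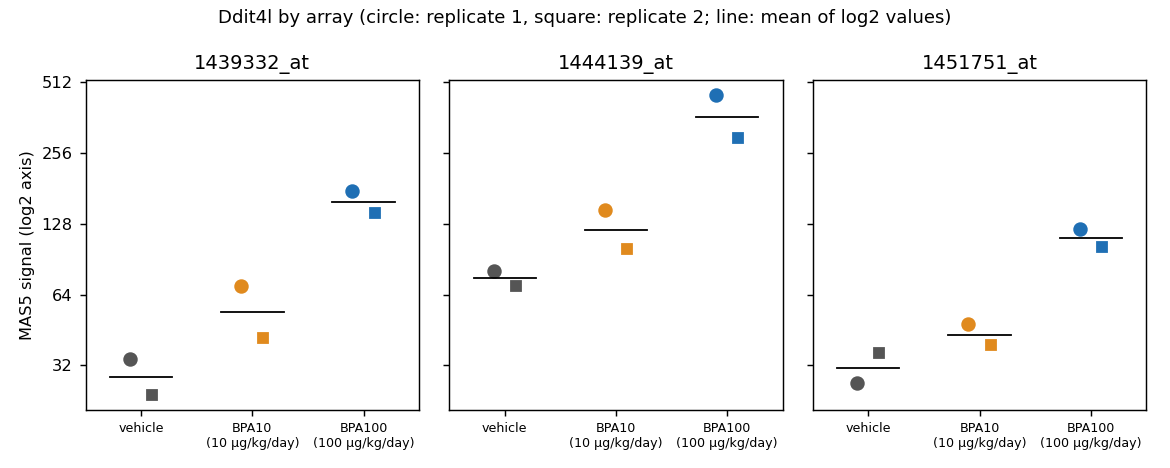
MAS5 signal of the 3 Ddit4l probe sets (log2 axis) in the vehicle, BPA10 and BPA100 groups, with 1 point per array and a line at the mean of the log2 values. On each probe set the BPA100 arrays stand apart, with 1444139_at at 81 and 70 for vehicle, 146 and 100 for BPA10 and 454 and 296 for BPA100.

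Values were compared as log2(signal + 1), with differences of group means ± the moderated standard error (SE) from limma, 2 arrays per group. BPA100 exceeded vehicle by 2.27 ± 0.26 on 1444139_at (4.82-fold), by 2.44 ± 0.32 on 1439332_at (5.41-fold) and by 1.81 ± 0.28 on 1451751_at (3.50-fold). Among the 27022 probe sets bright enough to be tested, these ranked 7, 5 and 14 from the largest positive difference. BPA100 exceeded BPA10 by 1.59 ± 0.26, 1.53 ± 0.32 and 1.35 ± 0.28 on the same probe sets. BPA10 exceeded vehicle by 0.68 ± 0.26, 0.90 ± 0.32 and 0.46 ± 0.28, and ranked 964, 485 and 2110. The first of these BPA10 differences was 0.40 without BPA10 replicate 1 and 0.95 without BPA10 replicate 2, and 1.05 with only arrays of 1 mouse. Arrays that did not overlap and were higher made up 16.1% of all tested probe sets for BPA100 against vehicle, 15.7% for BPA100 against BPA10 and 17.5% for BPA10 against vehicle. The full order of the 3 doses with no overlap, rising, was found for 264 of the 27022 tested probe sets, or 0.977%, and falling for 215, or 0.796%. Since Ddit4l was picked for this pattern, nothing is read from these ranks and shares, and no test outcome is given for it. Over the whole array, 0 of 27022 probe sets had an adjusted p under 0.05 in limma in any of the 3 comparisons, against 1914 with an unadjusted p under 0.05 for BPA10 against vehicle, 1075 for BPA100 against vehicle and 1283 for BPA100 against BPA10.

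The genes whose profile over the 6 arrays lay nearest to Ddit4l probe set 1444139_at were taken by the root mean square difference of log2 values, each centred on its own mean. The other Ddit4l probe sets lay at 0.162 and 0.287. Next came Rab3c, which encodes a small GTPase of secretory vesicles, at 0.408 (r = 0.969), with signals of 129 and 87 in vehicle, 177 and 144 in BPA10 and 312 and 269 in BPA100 islets. Its 3 other tested probe sets differed by 0.73, 1.36 and 1.07 between BPA100 and vehicle, against 1.44 for the first, so all 4 were higher. Edn3, which encodes the peptide endothelin 3, lay at 0.507 (r = 0.966), with signals of 142 and 104 in vehicle, 184 and 159 in BPA10 and 320 and 228 in BPA100 islets. Its 3 other probe sets differed by 0.68, 0.64 and 0.85, against 1.15. Ptpn14, which encodes a tyrosine phosphatase, lay at 0.497, Zfp882, a zinc finger gene, at 0.509 and Cdr2l at 0.516. Their differences of 1.18, 1.17 and 1.45 were not shared by the other tested probe set of each gene, which gave -0.02, -0.10 and -0.16. These likenesses rest on 6 arrays that share their scaling and are a description.

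**Figure D2:**
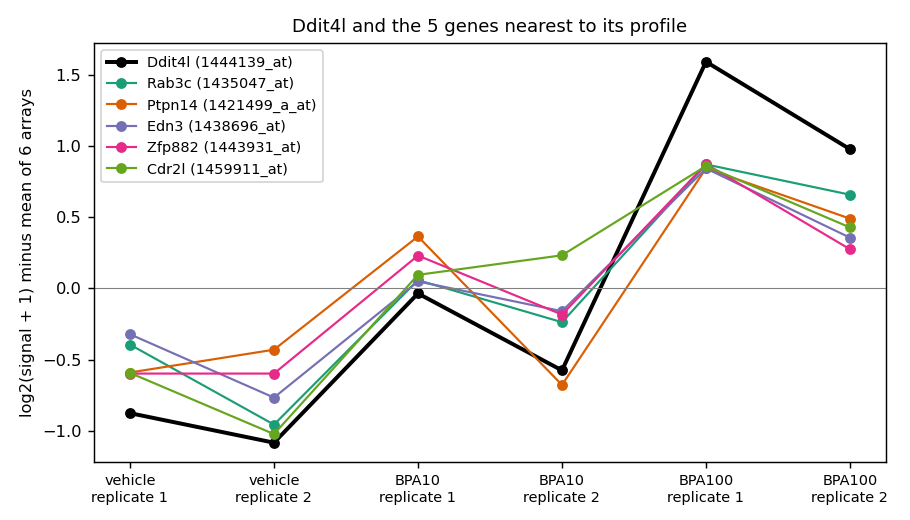
Log2(signal + 1) minus the mean of the 6 arrays for Ddit4l probe set 1444139_at (black) and the 5 genes nearest to it, with 1 point per array and lines that only link the values of a gene. All 6 profiles are highest on the BPA100 arrays, and Ddit4l spans the widest range.

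Islet hormone and identity genes were bright on every array, with signals of 12 such genes adding up to 61637 and 65839 on the vehicle, 79738 and 76092 on the BPA10 and 77061 and 64936 on the BPA100 arrays. Of these 12, 11 were higher in BPA10 than in vehicle islets, 5 of them at an unadjusted limma p under 0.05. That level was reached by 7.08% of all tested probe sets. For BPA100 against vehicle 10 were higher and 0 reached it. Markers of other cells in the preparation differed between the groups, though no marker passed adjustment, and in bulk RNA fewer cells of a type and less RNA per cell cannot be told apart. All 14 stellate-cell and fibroblast markers were tested, and 11 were higher in BPA10 and 13 lower in BPA100 than in vehicle islets. Their mean log2 level, relative to vehicle, was 0.14 and -0.14 on the vehicle, 0.68 and 0.06 on the BPA10 and -0.38 and -0.67 on the BPA100 arrays. Their summed signal was 9418 and 7471 on the vehicle, 14540 and 8627 on the BPA10 and 7509 and 5670 on the BPA100 arrays. Between BPA100 and BPA10, 13 of the 14 were lower, 11 of them at an unadjusted limma p under 0.05, against 4.75% of all tested probe sets. Macrophage markers summed to 2858 and 1727 in vehicle, 2606 and 1769 in BPA10 and 1414 and 1769 in BPA100 islets, and of 12 tested 8 were higher in BPA10 and 9 lower in BPA100 than in vehicle islets (Itgam below a signal of 20 on all arrays). Duct markers summed to 6873 and 7895 in vehicle, 7953 and 7020 in BPA10 and 6389 and 5845 in BPA100 islets, and of 7 tested 4 were higher in BPA10 and 7 lower in BPA100 than in vehicle islets. Most of the stellate markers were thus above vehicle at the lower dose and below it at the higher. The macrophage markers were mixed: Cd68, Lyz2, Cd14 and C1qa were below vehicle at both doses, and Ptprc, Aif1 and Mrc1 above it at both. Adgre1, Csf1r, Fcer1g, C1qb and C1qc were above vehicle at the lower dose and below it at the higher, like most stellate markers. All 12 tested macrophage markers were lower in BPA100 than in BPA10 islets. The 13 immediate-early and isolation stress genes had a mean level of 0.30 and -0.30 on the vehicle arrays, 0.13 and -1.09 on the BPA10 arrays and -1.08 and -1.32 on the BPA100 arrays, and all 11 that were tested were lower at both doses than in vehicle islets. Endothelial markers summed to between 4056 and 4450 on all 6 arrays. Of the 7 skeletal muscle markers, genes of a tissue in which Ddit4l is also active, 4 (Myh1, Myh4, Tnnt3 and Myog) lay below a signal of 20 on all arrays, and the list summed to 162 and 178 in BPA100 and 221 and 174 in vehicle islets. Whether cell makeup had a part in the Ddit4l values was not tested.

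Ddit4 did not share the profile of its paralog. Its only probe set, 1428306_at, had signals of 505 and 420 in vehicle, 499 and 449 in BPA10 and 418 and 619 in BPA100 islets. All 3 groups overlapped, and the BPA100 arrays held both the lowest and the highest value. BPA100 differed from vehicle by 0.14 ± 0.20 (limma adjusted p = 1) and BPA10 from vehicle by 0.04 ± 0.20 (adjusted p = 0.98), so Ddit4 did not pass in either comparison.

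The sestrins showed small differences. Sesn1, a p53-responsive sestrin, had 4 probe sets, 3 of them with all signals above 400. On 1433711_s_at it measured 487 and 544 in vehicle, 626 and 597 in BPA10 and 624 and 608 in BPA100 islets. Both doses lay above vehicle on that probe set, by 0.25 ± 0.13 for BPA10 and 0.26 ± 0.13 for BPA100 (limma adjusted p = 0.755 and 1). The other bright probe sets of Sesn1 gave -0.03 and 0.15 for BPA10, and 0.21 and 0.12 for BPA100. The dim one, 1444376_at, with signals of 16 to 32, passed the brightness filter only with the BPA100 arrays counted in and differed by 0.53 ± 0.44 between BPA100 and vehicle.

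Sesn2 encodes the sestrin that acts as a leucine sensor. On 1451599_at it measured 111 and 95 in vehicle, 83 and 81 in BPA10 and 100 and 104 in BPA100 islets, with BPA10 below vehicle (-0.32 ± 0.20, limma adjusted p = 0.794) and BPA100 level with it (-0.01 ± 0.20, which turned to 0.01 after quantile normalization and 0.03 after median centring). Its other probe set gave -0.25 for BPA10 and -0.18 for BPA100. Sesn3, a FoxO-responsive sestrin, measured 595 and 637 in vehicle, 597 and 691 in BPA10 and 618 and 800 in BPA100 islets on its bright probe set 1449303_at, where the groups overlapped (0.06 ± 0.16 and 0.19 ± 0.16 for BPA10 and BPA100 against vehicle). On 1453313_at vehicle replicate 2 stood apart at 256, with the other 5 arrays between 127 and 182, and the BPA10 difference was -0.49 with that array and -0.08 without it. No sestrin probe set passed.

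The genes of the TSC complex and of mTORC1 varied little on their bright probe sets. Tsc1 on 1455252_at measured 413 and 466 in vehicle, 351 and 419 in BPA10 and 402 and 448 in BPA100 islets, with overlap between all groups. Its dim probe sets, with signals of 15 to 44, gave 0.48 and 0.61 for BPA10 and 0.81 and 0.32 for BPA100 against vehicle, opposite in sign to the -0.19 and -0.05 of the bright one. Tsc2 on 1452105_a_at measured 91 and 84 in vehicle, 96 and 93 in BPA10 and 86 and 111 in BPA100 islets. BPA10 lay above vehicle there, but by only 0.11 ± 0.21 (limma adjusted p = 0.939).

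Mtor, the kinase itself, had the narrowest range of the set on 1417592_at, with 362 and 369 in vehicle, 391 and 362 in BPA10 and 355 and 351 in BPA100 islets. The BPA100 arrays were the lowest, but the differences from vehicle were only 0.04 ± 0.14 for BPA10 and -0.05 ± 0.14 for BPA100. Its probe set 1436267_a_at, at 41 to 91, differed by 0.59 ± 0.32 between BPA10 and vehicle (limma adjusted p = 0.76; 0.26 without BPA10 replicate 1), and 1446185_at, at 2 to 11, was too dim to be tested. Rptor on 1434619_at measured 162 and 173 in vehicle, 164 and 164 in BPA10 and 144 and 143 in BPA100 islets. The BPA100 arrays lay below all others, at -0.22 ± 0.16 against vehicle and -0.19 ± 0.16 against BPA10 (limma adjusted p = 1 and 0.966). The dim Rptor probe set 1430784_a_at went the other way, with 12 and 2 in vehicle, 21 and 17 in BPA10 and 30 and 24 in BPA100 islets, and 1458472_at lay between 3 and 21. Neither of the dim Rptor probe sets was tested.

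**Figure D3:**
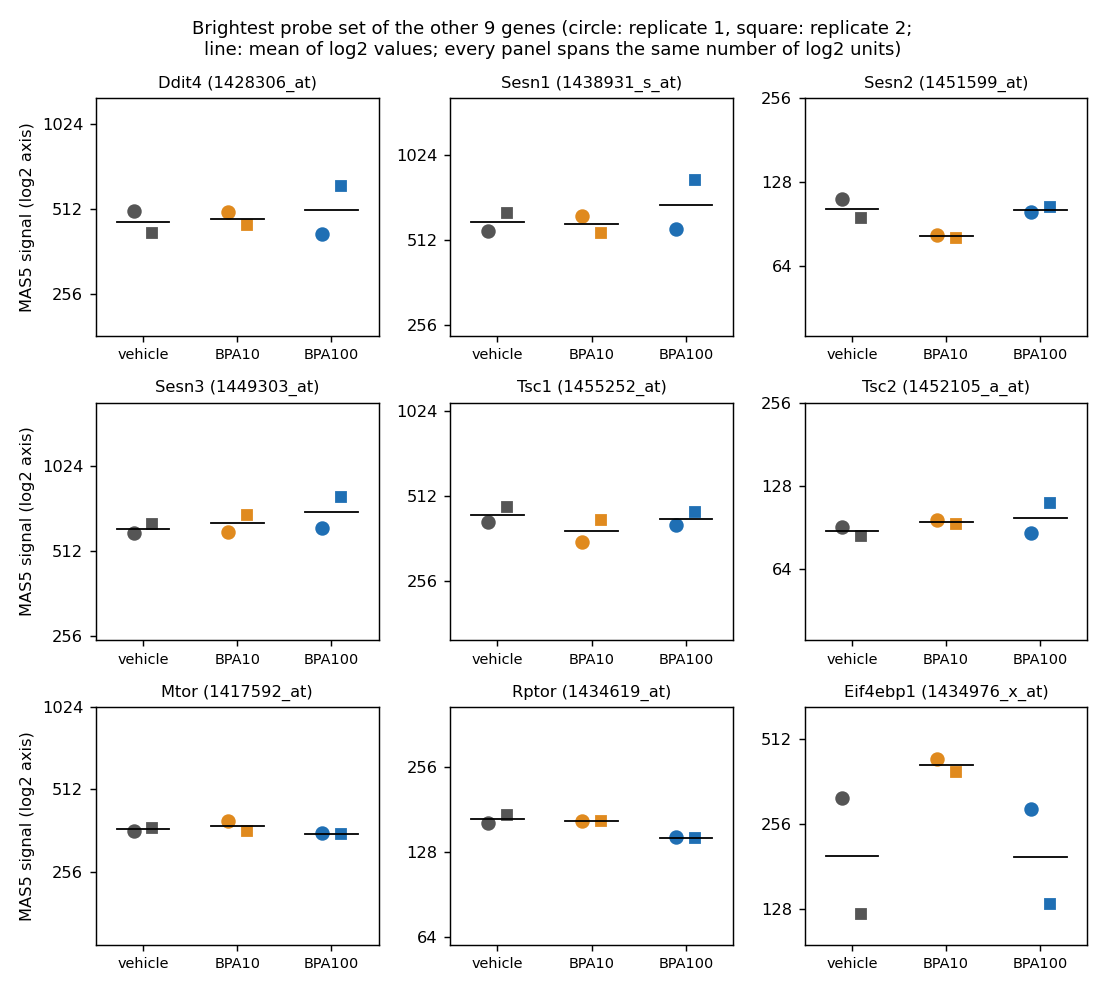
MAS5 signal (log2 axis) of the brightest probe set of each of the other 9 genes in the vehicle, BPA10 and BPA100 groups, with 1 point per array and a line at the mean of the log2 values. Every panel spans the same number of log2 units, and Eif4ebp1, from 123 to 436, covers the widest range.

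Eif4ebp1 was the gene among these 9 with the largest difference between the doses. On 1417562_at it measured 288 and 192 in vehicle, 386 and 378 in BPA10 and 213 and 151 in BPA100 islets. On 1434976_x_at it measured 317 and 123 in vehicle, 436 and 393 in BPA10 and 290 and 133 in BPA100 islets. The BPA10 arrays were the highest on both, while vehicle and BPA100 overlapped. BPA100 lay below BPA10 by -1.09 ± 0.24 and -1.07 ± 0.45 (0.471-fold and 0.476-fold, unadjusted p = 0.0015 and 0.0446, limma adjusted p = 0.898 and 0.964). The second of these was -0.51 without BPA100 replicate 2 and -1.63 without BPA100 replicate 1. BPA10 lay above vehicle by 0.70 ± 0.24 and 1.06 ± 0.45 (1.62-fold and 2.09-fold, limma adjusted p = 0.656 and 0.692), and the first of these was 0.41 without vehicle replicate 2 and 0.99 without vehicle replicate 1. The third probe set, 1417563_at, with signals of 58 to 93, did not share this, with 0.07 ± 0.27 between the doses and 0.16 ± 0.27 between BPA10 and vehicle.

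Markers of acinar cells, the enzyme-secreting cells of the exocrine pancreas, were highest on BPA10 replicate 1, and BPA100 replicate 1 and BPA10 replicate 2 followed at nearly the same level. All 19 measured markers were higher in BPA10 than in vehicle islets, and 18 of 19 were higher in BPA100 than in vehicle islets. An unadjusted limma p under 0.05 was reached by 15 for BPA10 and 2 for BPA100, against 7.08% and 3.98% of all tested probe sets. Several of these markers, such as Prss2 and Cel, also lie near the top of the signal scale, which differed between the groups as given above. The mean log2 level of the 19 markers relative to vehicle was 0.54 and -0.54 on the vehicle arrays, 1.23 and 1.02 on the BPA10 arrays and 1.01 and 0.07 on the BPA100 arrays. Their summed signal was 119947 and 66146 on the vehicle, 168204 and 152283 on the BPA10 and 155836 and 91471 on the BPA100 arrays. Eif4ebp1 1417562_at measured 213 on BPA100 replicate 1 and 378 on BPA10 replicate 2. In all 3 groups replicate 1 was the higher array both for these markers and for Eif4ebp1 on each of its probe sets. The 1434976_x_at difference between BPA10 and vehicle was 0.38 without vehicle replicate 2, the array lowest in acinar markers, and 1.74 without vehicle replicate 1. The part of acinar RNA in the Eif4ebp1 values was not tested.

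**Figure D4:**
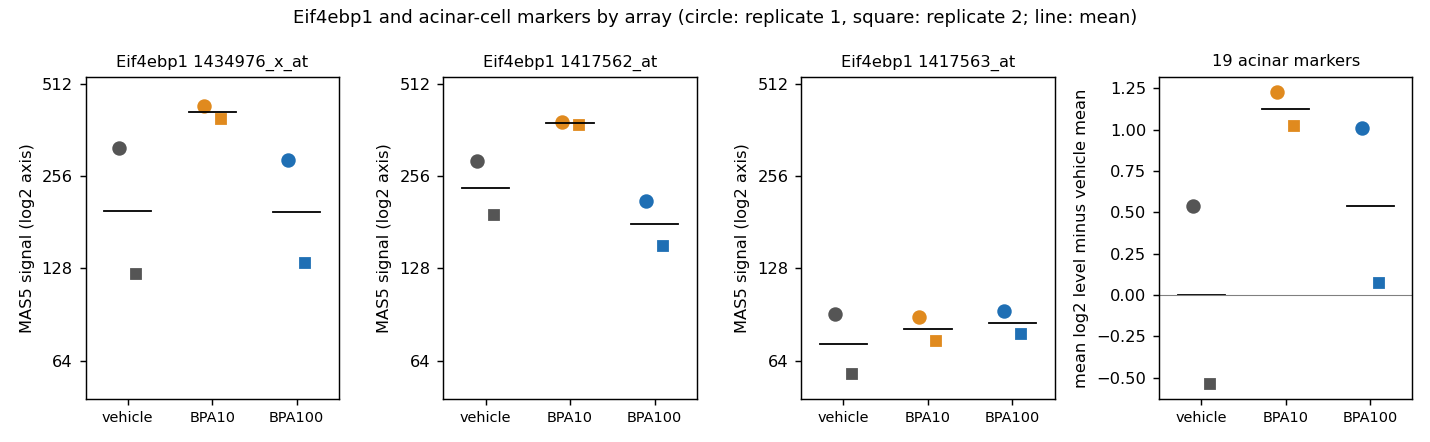
MAS5 signal of the 3 Eif4ebp1 probe sets (log2 axis) and mean log2 level of 19 acinar markers relative to the vehicle mean, in the vehicle, BPA10 and BPA100 groups, with 1 point per array and a line at the mean. The BPA10 arrays are the highest on 1417562_at (386 and 378) and 1434976_x_at (436 and 393). For the acinar markers they stand at 1.23 and 1.02, with BPA100 replicate 1 nearly level at 1.01, though that array measured 213 on 1417562_at.

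Of the 25 probe sets, 22 were bright enough to be tested, 19 of them for the 9 genes other than Ddit4l. Among these 19, 13 were higher and 6 lower in BPA10 than in vehicle islets, with differences from -0.49 to 1.06, a median of 0.11 and 2 at an unadjusted p under 0.05, where 7.08% of all tested probe sets reached that level. For BPA100 against vehicle 11 were higher and 8 lower, from -0.39 to 0.81 with a median of 0.12, and 0 had an unadjusted p under 0.05, against 3.98% of all. The 11 include Sesn1 1444376_at, which passed the brightness filter only with the BPA100 arrays counted in. It is also among the probe sets without overlap in this comparison, counted below. Between BPA100 and BPA10 the median was 0.07, and 2 probe sets, both of Eif4ebp1, had an unadjusted p under 0.05, against 4.75% of all. The 2 groups had no overlapping values on 7 of the 19 between BPA10 and vehicle, 5 between BPA100 and vehicle and 6 between BPA100 and BPA10. These are 36.8%, 26.3% and 31.6% of them, near the 36%, 31.9% and 30.7% of all tested probe sets. The median difference of all tested probe sets was 0.00 in each comparison. After adjustment over all tested probe sets 0 of the 19 passed, with the smallest adjusted p in limma at 0.656 for BPA10 against vehicle, 1 for BPA100 against vehicle and 0.898 for BPA100 against BPA10.

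**Figure D5:**
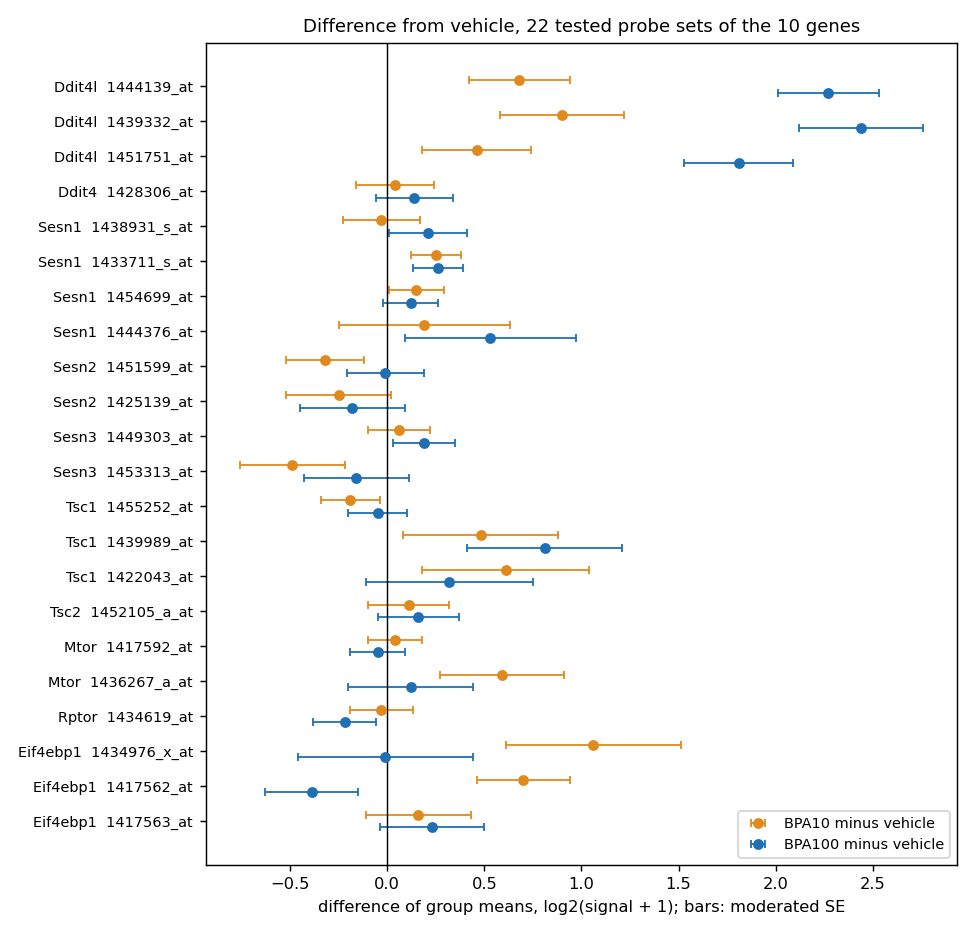
Difference from vehicle on the log2(signal + 1) scale, with the moderated SE as bars, for the 22 tested probe sets of the 10 genes, for BPA10 (orange) and BPA100 (blue). The 3 Ddit4l probe sets lie at 1.81 to 2.44 for BPA100, while the other 19 lie between -0.39 and 0.81.

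The rest of the pathway was examined in 4 lists with 62 tested genes, in which 28 genes were higher and 34 lower in BPA10 than in vehicle islets (median 0.00), and 32 higher and 30 lower in BPA100 than in vehicle islets (median 0.01). At an unadjusted p under 0.05, 2 were higher and 2 lower for BPA10 and 0 higher and 2 lower for BPA100, which is 6.45% and 3.23% of them, near or below the 7.08% and 3.98% of all tested probe sets, and 0 passed after adjustment in limma. Of 8 partners of the mTOR complexes, Deptor, an inhibitor that binds mTOR, measured 1380 and 1196 in BPA10 and 1015 and 1039 in vehicle islets (0.32 ± 0.13, adjusted p = 0.688), but its other probe sets lay between -0.48 and 0.17. Rictor, the scaffold of the second mTOR complex, differed by -0.21 and -0.16 for BPA10 and BPA100 (other probe sets from -0.51 to 0.01), Akt1s1, an inhibitory subunit, by -0.28 and -0.17, Prr5l by 0.61 and 0.20, and Mlst8, a subunit of both complexes, by -0.22 and 0.04. Other Akt1s1 probe sets lay between -0.60 and 0.35 for BPA10 and at 0.01 and 0.15 for BPA100.

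Of 16 genes of the TSC, Rheb and upstream kinase list, 0 reached an unadjusted p under 0.05 at either dose. Rheb, the GTPase that switches on mTORC1, measured 2143 and 2242 in vehicle, 2033 and 2355 in BPA10 and 2297 and 2149 in BPA100 islets, with differences of 0.00 and 0.02 (SE 0.12). The AMP-activated kinase subunits Prkaa2 and Prkag2 differed by 0.38 and -0.50 for BPA100. Their other probe sets gave 0.08 for Prkaa2 and -0.33 and -0.14 for Prkag2. Pdpk1, the kinase that activates Akt, differed by 0.22 for BPA10 (other probe set -0.10). In the amino acid branch, with 24 tested genes, Rragd, a Rag GTPase that brings mTORC1 to the lysosome, measured 530 and 457 in vehicle, 622 and 718 in BPA10 and 593 and 619 in BPA100 islets. It differed by 0.44 ± 0.14 for BPA10 and 0.30 ± 0.14 for BPA100 (limma adjusted p = 0.645 and 1). Its other probe sets gave -0.14 and 0.11 for BPA10 and 0.03 and 0.51 for BPA100. Fnip2, a partner of folliculin, differed by -0.53 for BPA10, and Lamtor4, a subunit of the lysosomal Ragulator, by -0.36 for BPA100. Among 14 substrates and translation factors, the autophagy kinase Ulk1 measured 162 and 165 in BPA100 and 241 and 206 in vehicle islets (-0.44 ± 0.18, limma adjusted p = 1). Eif4ebp2, a relative of Eif4ebp1, differed by 0.04 and 0.07 for BPA10 and BPA100 (other probe sets from -1.09 to 0.31 for BPA100), the cap-binding factor Eif4e by 0.13 and 0.10 (other probe sets from -0.08 to 0.57), Eif4g2 by 0.22 at both doses (other probe sets from -0.27 to 0.12 for BPA10 and -0.03 to 0.14 for BPA100) and Tfeb, a lysosome regulator, by 0.94 and 0.68 with an SE of 0.79. Rps6kb1, the S6 kinase gene, was not analysed here.

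Genes that share upstream regulators with Ddit4, the sestrins or Eif4ebp1 were examined in 5 lists with 80 tested genes. In them 8 genes were higher and 1 lower in BPA10 than in vehicle islets at an unadjusted p under 0.05 (11.2%, against 7.08% of all tested probe sets, 3.12% higher and 3.96% lower), and 3 higher and 2 lower in BPA100 than in vehicle islets (6.25%, against 3.98% of all, 2.11% higher and 1.87% lower), with 0 passing after adjustment in limma. Of 22 genes of the ATF4 stress response, 16 were higher in BPA10 and 9 in BPA100 than in vehicle islets, with medians of 0.27 and -0.02. Atf4 itself measured 1727 and 1907 in vehicle, 1538 and 1549 in BPA10 and 1583 and 1352 in BPA100 islets (-0.23 ± 0.13 and -0.31 ± 0.13). Phgdh, an enzyme of serine synthesis, measured 477 and 107 in vehicle, 734 and 535 in BPA10 and 501 and 147 in BPA100 islets. It differed by 1.47 ± 0.70 for BPA10 and 0.26 ± 0.70 for BPA100. Its other probe sets lay between 0.59 and 1.46 for BPA10 and between 0.16 and 1.05 for BPA100. In each group replicate 1 was the higher array, as it was for the acinar markers. The part of acinar RNA in the Phgdh values was not tested. The amino acid transporter gene Slc7a1 differed by 0.63 ± 0.17 for BPA10 (limma adjusted p = 0.586; other probe set 0.02) and the receptor gene Vldlr by -0.36 for BPA100 (other probe sets from -0.34 to 0.07).

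Of 16 p53 genes, 10 were higher at each dose, with medians of 0.11 and 0.05. Trp53inp1 measured 650 and 807 in vehicle, 882 and 1052 in BPA10 and 899 and 986 in BPA100 islets, and Zmat3, an RNA-binding protein gene, 272 and 248 in vehicle, 326 and 372 in BPA10 and 352 and 303 in BPA100 islets. For BPA10 and BPA100 against vehicle, Trp53inp1 differed by 0.41 ± 0.16 and 0.38 ± 0.16 and Zmat3 by 0.42 ± 0.16 and 0.33 ± 0.16, and neither passed (limma adjusted p = 0.68 for BPA10 and 1 for BPA100 in each). Of 15 FoxO genes, 12 were higher at each dose, with medians of 0.22 and 0.20 and 0 at an unadjusted p under 0.05. The insulin receptor gene Insr differed by 0.26 and 0.25 for BPA10 and BPA100 (other probe sets 0.40 and -0.25 for BPA10, 0.82 and 0.30 for BPA100), Irs2, an insulin receptor substrate, by -0.48 and -0.43, Klf15 by 0.54 and 0.24, and Bcl6 by 1.19 and 0.61, with the other Bcl6 probe set at -0.64 and -0.52.

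Of 13 glucocorticoid genes, 6 were higher in BPA10 and 3 in BPA100 than in vehicle islets, with medians of -0.06 and -0.13. The metallothionein gene Mt2 measured 1535 and 1304 in vehicle, 3727 and 2582 in BPA10 and 1934 and 2229 in BPA100 islets, and so was highest at the lower dose (1.13 ± 0.19 for BPA10, limma adjusted p = 0.315; 0.55 ± 0.19 for BPA100, adjusted p = 1). Mt1 differed by 1.13 and 0.45, but its other probe set gave -0.44 and -1.28. Cebpd, a transcription factor gene, measured 108 and 143 in BPA100 and 230 and 218 in vehicle islets (-0.84 ± 0.19, limma adjusted p = 0.922). Of 14 hypoxia genes, 11 were higher in BPA10 and 10 in BPA100 than in vehicle islets, with medians of 0.12 and 0.04. Hif1a, the oxygen-regulated transcription factor, measured 1555 and 1471 in vehicle, 1843 and 1940 in BPA10 and 1892 and 1909 in BPA100 islets (0.32 ± 0.11 and 0.33 ± 0.11, limma adjusted p = 0.668 and 1), with its other probe sets higher too, at 0.09 to 0.72. Its target Ankrd37 differed by 0.03 for BPA10 and 0.56 for BPA100, and Ldha, the lactate dehydrogenase gene, by 0.68 and -0.01.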

How the data were processed

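RNA of islets, extracted with a silica-column kit and amplified over 2 rounds of cDNA synthesis per the labels' protocols, was measured on 6 Affymetrix arrays. For each probe set the authors deposited 1 linear MAS5 intensity from every array, per the submitters' processing notes, and the MAS5 version is not given in the sources used here. With the lowest and highest 2% left out, every array had a mean of 150, so the arrays had been scaled to 1 mean. The table held 45101 probe sets, and 64 control probe sets were left out. Per the platform annotation 34945 name 1 gene, 932 several and 9160 none, and 34741 of the first matched a gene identifier of RefSeq GRCm38.p6, which gave names, positions and promoters.

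Values were taken as log2(signal + 1), which understates changes of dim probe sets. The 27022 probe sets with a mean at or above the 40th percentile were tested with limma 3.58.1 in R 4.3.3, using 3 group means, an intensity trend, 3 residual and 5.4 prior degrees of freedom, 2-sided tests and Benjamini-Hochberg adjustment over all 27022, at a threshold of 0.05. The median SE was 0.24, so the number of arrays limits the precision. Correlations were 0.968 between arrays of each group and 0.945 to 0.975 over all pairs. The method was tested on simulated data. The members and gene lists were chosen with earlier results of these data known. In each pathway list a gene stands for its brightest tested probe set, and the text names the 2 with the smallest p in each comparison with vehicle, 8 defining partners and the 5 genes nearest to Ddit4l, predicted genes left out. A marker's level is that of its brightest probe set, tested or not. Alternatives were other scalings, filters, a pseudocount of 16, no trend, fewer arrays and a replicate block.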

Additional observations from a re-analysis of the deposited data

How the results depend on the processing

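Most of the 15 alternatives could not have turned the sign of a Ddit4l difference. On every probe set of this gene each BPA10 array was above each vehicle array and below each BPA100 array. So leaving out arrays or raising the pseudocount could not turn a sign. Changing the filter, the trend, the groups fitted or the block leaves a difference of means the same. Only quantile normalization and median centring could have turned one. The differences of Ddit4l kept their direction under all 15 alternatives, with 1451751_at too dim to be tested at the 60th percentile filter. Over these the BPA100 difference from vehicle ranged from 1.43 (1451751_at with a pseudocount of 16) to 2.68, that from BPA10 from 1.10 to 1.90 and that of BPA10 from vehicle from 0.26 (1451751_at without vehicle replicate 1) to 1.51 (1439332_at with only arrays of 1 mouse). With only arrays of 1 mouse, where the lone vehicle and BPA10 arrays are assumed to vary like the BPA100 pair, the BPA10 difference of 1444139_at was 1.05 in place of 0.68. Without 1 array each, 1444139_at ranged from 1.96 to 2.58 for BPA100 against vehicle, 1.29 to 1.90 for BPA100 against BPA10 and 0.40 to 0.95 for BPA10 against vehicle. No tested probe set of the other 9 genes passed under any alternative (smallest adjusted p = 0.206). The count of all probe sets passing for BPA10 against vehicle was 0, and 1 with only the groups compared and between 0 and 9 without 1 array each (9 without vehicle replicate 1, 1 without either BPA100 array). For BPA100 against vehicle it was 0, and 6 after median centring, 4 with only the groups compared, 7 with the replicate block and between 0 and 5 without 1 array each (5 without vehicle replicate 1, 4 without either BPA10 array). For BPA100 against BPA10 it was 0, and 0 to 1 without 1 array each (1 without BPA10 replicate 2). The labels do not say whether arrays of the same replicate number share a batch. The deviations of the arrays numbered 1 correlated weakly between groups, by 0.08 to 0.199, which cannot settle it. With the replicate block the differences are the same by construction, with an SE of 0.18 in place of 0.26 for 1444139_at. Probe sets with an unadjusted p under 0.05 numbered 856 without vehicle replicate 2 for BPA10 against vehicle, and 2025 without BPA10 replicate 2 for BPA100 against BPA10. With the replicate block they numbered 2710 for BPA10 against vehicle, 1494 for BPA100 against vehicle and 2004 for BPA100 against BPA10. In the main fit they numbered 1914, 1075 and 1283. Without a filter they numbered 2917, 1838 and 2244 for BPA10 against vehicle, BPA100 against vehicle and BPA100 against BPA10, as more probe sets were tested, and with the 60th percentile filter 1203 and 807 for the first and the last, as fewer were.

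Small, uncalled differences turned sign under some settings, and the cause was not tested. With only arrays of 1 mouse, BPA10 against vehicle became 0.16 for Sesn2 1425139_at and -0.09 for Sesn3 1449303_at. BPA100 against vehicle became 0.10 for Sesn2 1451599_at (0.01 after quantile normalization, 0.03 after median centring), 0.67 for Eif4ebp1 1434976_x_at (0.03 after median centring) and -0.09 for Mtor 1436267_a_at. BPA100 against BPA10 became -0.14 for Sesn1 1444376_at, -0.02 for Sesn1 1433711_s_at (-0.01 after quantile normalization), -0.26 for Sesn2 1425139_at, -0.06 for Eif4ebp1 1417563_at and -0.05 for Tsc1 1439989_at. Without 1 array each, 28 differences turned sign, given here with their range. For BPA10 against vehicle these were Ddit4 1428306_at (-0.09 to 0.17), Sesn1 1444376_at (-0.02 to 0.67), Sesn1 1438931_s_at (-0.13 to 0.08), Sesn2 1425139_at (-0.57 to 0.08), Sesn3 1449303_at (-0.04 to 0.17), Eif4ebp1 1417563_at (-0.16 to 0.48), Rptor 1434619_at (-0.08 to 0.02), Mtor 1417592_at (-0.01 to 0.10). For BPA100 against vehicle these were Ddit4 1428306_at (-0.14 to 0.43), Sesn1 1438931_s_at (-0.09 to 0.50), Sesn2 1451599_at (-0.12 to 0.10), Sesn3 1453313_at (-0.57 to 0.25), Eif4ebp1 1434976_x_at (-0.69 to 0.67), Eif4ebp1 1417563_at (-0.09 to 0.55), Mtor 1436267_a_at (-0.09 to 0.32), Tsc1 1422043_at (-0.11 to 0.75), Tsc1 1455252_at (-0.13 to 0.04), Tsc2 1452105_a_at (-0.02 to 0.34). For BPA100 against BPA10 these were Ddit4 1428306_at (-0.18 to 0.39), Sesn1 1444376_at (-0.14 to 0.34), Sesn1 1438931_s_at (-0.06 to 0.52), Sesn1 1454699_at (-0.14 to 0.07), Sesn1 1433711_s_at (-0.02 to 0.05), Sesn2 1425139_at (-0.26 to 0.40), Sesn3 1449303_at (-0.06 to 0.32), Eif4ebp1 1417563_at (-0.06 to 0.20), Tsc1 1439989_at (-0.05 to 0.71), Tsc2 1452105_a_at (-0.13 to 0.23).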
